A study of Mus musculus with 2 samples.

Results

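The genes described are Trp53, which encodes the transcription factor p53, its inhibitors Mdm2 and Mdm4, and genes that p53 is known to switch on. They were chosen by name, 35 of the 34745 gene models in the data, and all 35 were found in both libraries. RNA was sequenced from mouse haematopoietic stem and progenitor cells of the C57BL/6 strain. The marrow donors had received 5-fluorouracil, an antimetabolite that kills dividing cells and damages RNA and DNA, so this exposure is common to both groups. Progenitors enriched from femoral marrow were transduced by lentivirus, spun with 6 µg/ml polybrene, and sorted after transduction. They grew in IMDM with the cytokines SCF (50 ng/ml), IL-3 (10 ng/ml) and IL-6 (10 ng/ml), with hydrocortisone and 20% fetal bovine serum, and the virus medium was replaced after 24 h. One group carried PML/RARa (WT), the leukaemia fusion of the nuclear body protein PML with retinoic acid receptor alpha, and the other carried PML/RARa (2KR), a form named for 2 lysines. Each group was 1 library, of 17606168 counts in WT and 20462011 counts in 2KR. An empty vector arm was not analysed here. The sources used here do not say how many mice were pooled, which promoter drove the fusion or how much of its protein was made.

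The p53 protein is kept low by MDM2, a ubiquitin ligase that p53 itself induces, and by MDM4, which binds its activating domain. DNA damage, ribosomal stress or oncogene activity frees p53, which then binds pairs of decamer half-sites in DNA and induces genes of cell cycle arrest, apoptosis, DNA repair and metabolism. In haematopoietic stem and progenitor cells p53 holds back entry into cycle and removes damaged cells. PML bodies, which PML/RARa breaks up, are sites where p53 is modified.

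The sequences below are shown because they carry paired p53 half-site cores close to a transcription start. Each core is a C, then 2 letters that are A or T, then a G, with 6 letters of any kind between the pair. A pair on one strand is a pair on the other too, so both strands were covered, and pairs may overlap. The search covered 250 bases upstream of each start in the RefSeq table of promoters (GRCm38.p6), which held 27 of the 35 genes. A pair lay in this window in 6 of the 27 genes (22.2%), against 6.70% of the 27025 genes in the table. Capitals mark the cores. The first 3 sequences span 60 bases, and the others are cut to 20 bases because the wider window touches an annotated exon.
Cdkn1a (chr17:29090908-29090967, plus strand): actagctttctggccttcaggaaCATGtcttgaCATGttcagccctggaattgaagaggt
Bbc3 (chr7:16309466-16309525, plus strand): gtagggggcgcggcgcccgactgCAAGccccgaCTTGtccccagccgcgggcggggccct
Trp53 (chr11:69580264-69580323, plus strand): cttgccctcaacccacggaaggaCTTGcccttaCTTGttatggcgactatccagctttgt
Ckap2 (chr8:22186003-22186022, minus strand): agaCATGtcctgaCTTGtca
Aen (chr7:78895937-78895956, plus strand): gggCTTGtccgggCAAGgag
Tigar (chr6:127109746-127109765, minus strand): ggtCTAGctctggCAAGact

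The pair ends 34 bases before a start of Cdkn1a, 58 before that of Trp53, 80 before that of Bbc3 and 104 before a start of Aen. It lies farther out for Ckap2, at 186 bases, and for Tigar, at 196. The RefSeq start used for Aen lies inside its gene model, which begins at base 78895854. The Aen pair, at 78895940 to 78895953, is therefore within the model and not upstream of it. Over the full double decamer, Cdkn1a matched 19 of the 20 consensus letters and Ckap2 matched 18, while the other 4 matched 17. A match describes the letters and does not show binding, and genes without one in this window may hold sites elsewhere.

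The comparison asks how far these transcripts depend on which form of the fusion the cells carry. In 2KR, transcripts of the cell cycle, mitosis and apoptosis genes of the set were mostly higher: the spindle gene Psrc1 was 2.54-fold higher, the apoptosis genes Zmat3 and Perp 1.96-fold and 1.83-fold, and the arrest gene Cdkn1a 1.56-fold. Trp53 itself was level between the libraries, with a ratio of 0.998, and so was Mdm2 at 1.05. Lower in 2KR were Plk3 by 3.27-fold, Ephx1 by 2.64-fold and Fas by 2.21-fold, a share of the set close to that over all genes, and also Eda2r by 1.27-fold and the barely read Gdf15. Because each form was sequenced in 1 library, no difference has a replicate check and no p-value was computed. Folds are ratios of CPM (counts scaled to library size, with TMM factors). Where each gene is described its fold is followed by an exact 95% interval, which covers counting error only.

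Counted by size, 7 of the 34 genes that averaged 1 CPM or more were at least 1.5-fold higher in 2KR (20.6%), against 6.92% of the 12466 gene models that reached this mean. At least 1.5-fold lower were 3 of the 34 (8.82%), against 9.67% of all models. The size rule uses the log2 ratio of CPM + 1, which shrinks the ratio of low genes. At 2-fold, 1 gene was higher (Psrc1; 2.66% of all models) and 2 were lower (Plk3 and Ephx1; 4.56% of all models). A ratio above 1 was found for 27 of the 34 (79.4%), against 52.3% of all models, and a ratio below 1 for 7 (20.6%), against 47.7%. The counting interval lay wholly above 1 for 20 genes (58.8%, against 31.6%) and wholly below 1 for 4 (11.8%, against 28.5%). Whether an interval leaves out 1 depends on the number of counts as well as on the ratio. The shares over all models, here and below, were not matched for counts. The median log2 ratio was 0.21, with quartiles of 0.06 and 0.47, against 0.02 over all models with quartiles of -0.21 and 0.23. The summed level of all 35 genes was 2862 CPM in the WT library and 3847 CPM in the 2KR library, 1.34-fold higher. Perp, Cdkn1a, Ccng1, Trp53inp1 and Psrc1, the 5 genes with the largest differences in CPM, had summed levels of 1176 CPM (WT) and 1879 CPM (2KR), 1.60-fold higher. The other 30 genes summed to 1686 and 1968 CPM, 1.17-fold higher.

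**Figure D1:**
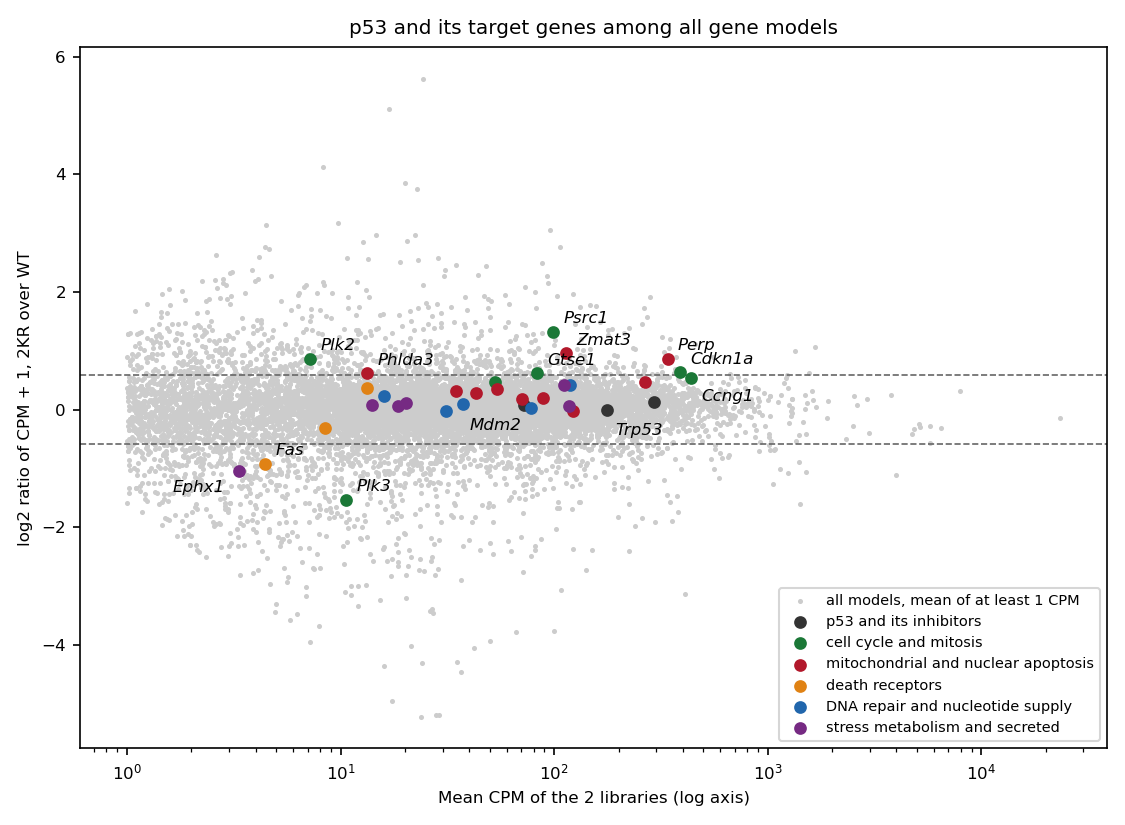
Log2 ratio of CPM + 1, 2KR over WT, against mean CPM on a log axis, for the 34 genes (coloured by role) and the 12466 gene models that average 1 CPM or more (grey), 1 library per form. Dashed lines mark 1.5-fold; 7 coloured points lie above the upper line and 3 below the lower one, inside the spread of the grey points.

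Gene lengths differ, so levels between genes were described with the deposited FPKM (counts divided by a length for each gene and by library depth). What this length stands for is not stated. For Psrc1 it is 8549 bases, longer than the whole locus (108383839 to 108388231), so there it is not a transcript length. The order of genes by FPKM, here and below, therefore depends on a length of unknown kind. Perp had the highest FPKM of the set in both libraries, at 125.4 in WT and 233 in 2KR, while by CPM Ccng1 was highest, at 355 and 518. By FPKM Cdkn1a was next, at 97.9 and 155, and then Ccng1, at 81.7 and 121. At the low end stood Gdf15, at 0.291 and 0.0835 FPKM, and the receptor gene Eda2r, at 1.35 and 1.08. Of the 34 genes, 20 lay above the median FPKM of the models that averaged 1 CPM or more.

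**Figure D2:**
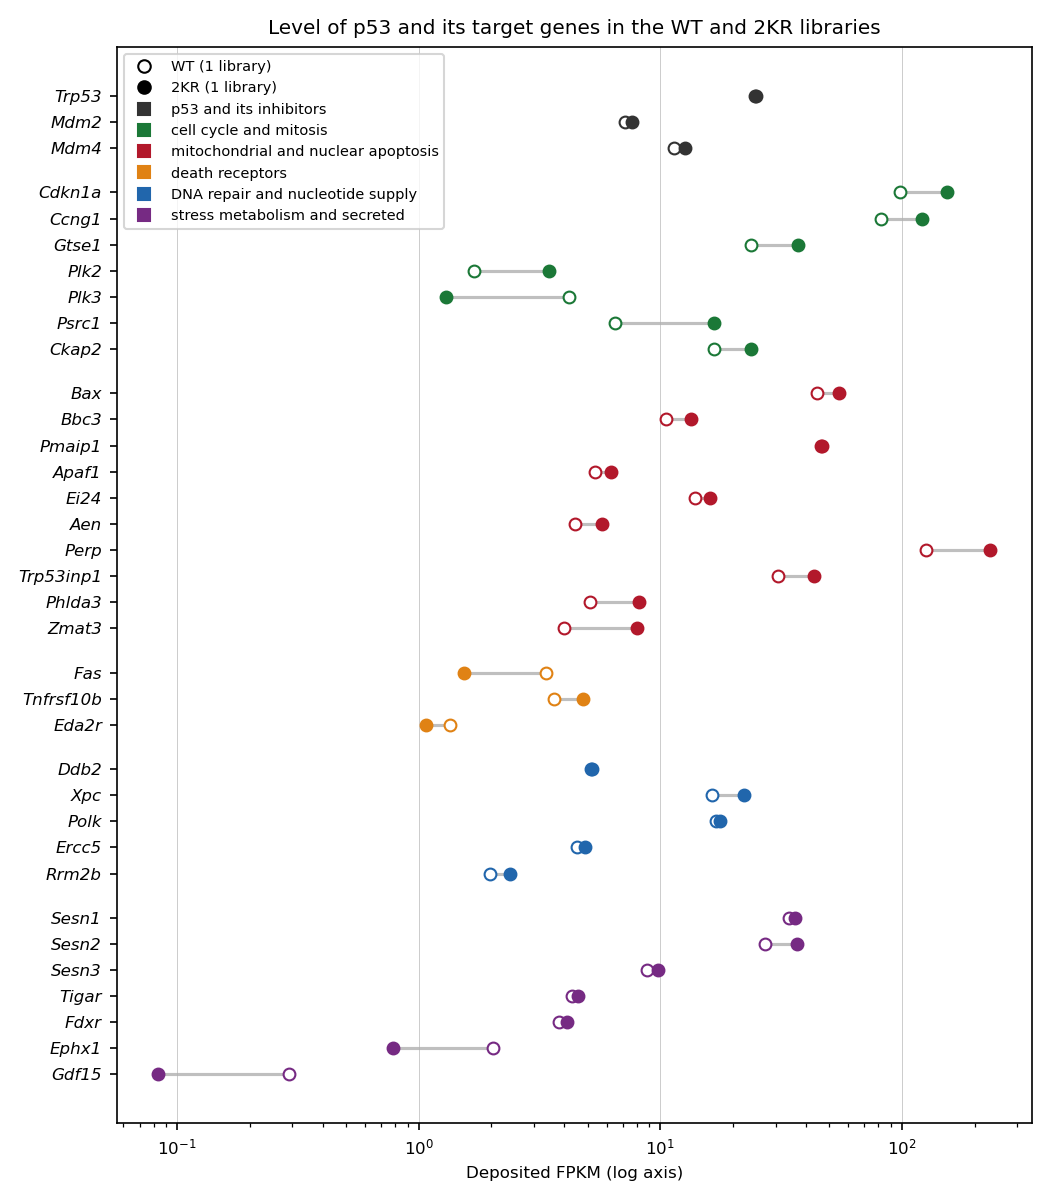
Deposited FPKM on a log axis for each of the 35 genes, grouped by role, in the WT library (open circle) and the 2KR library (filled circle). The level runs from under 0.1 for Gdf15 in 2KR to 233 for Perp in 2KR, and the filled circle is to the right of the open one for most genes of the cell cycle, mitosis and apoptosis groups.

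Trp53 (ENSMUSG00000059552, chromosome 11, 69580359 to 69591873 in GRCm38) was read 3088 times in WT and 3633 times in 2KR, that is 177 and 176 CPM. The ratio was 0.998 (0.951 to 1.05), so any difference was under the counting error of these libraries, and its sign changed with the scaling. Mdm2 (chromosome 10, 117688888 to 117710758), the ligase that degrades p53 and is itself a p53 target, had 70.3 and 74.1 CPM, a ratio of 1.05 (0.977 to 1.14). Mdm4, the inhibitor without ligase activity of its own, had 279 and 306 CPM, a ratio of 1.10 (1.06 to 1.14). By FPKM the order within this core was the same in both libraries: Trp53 at 24.7 and 24.98, Mdm4 at 11.4 and 12.6, and Mdm2 at 7.13 and 7.63. By CPM, however, Mdm4 was above Trp53 in both. Its FPKM is divided by 24367 bases, against 7108 for Trp53, so which of them is more abundant rests on that length. Of these 3 transcripts 0 passed 1.5-fold, and their median log2 ratio was 0.08. These are RNA levels, and p53 is controlled mainly through its protein, which was not measured.

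The 7 genes of cell cycle and mitosis had the highest median log2 ratio of the role groups, 0.63, and 6 of the 7 had a counting interval wholly above 1, against 31.6% of all models. Cdkn1a (ENSMUSG00000023067, chromosome 17, 29090979 to 29100722) encodes p21, the inhibitor of cyclin-dependent kinases through which p53 arrests cells. Its counts were 5296 in WT and 9719 in 2KR, which is 303 and 472 CPM, 1.56-fold higher (1.51 to 1.61). Ccng1, cyclin G1, had 355 and 518 CPM, 1.46-fold higher (1.41 to 1.51), which leaves it just under the 1.5-fold rule. The products of both genes are induced together by p53 in many tissues.

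Psrc1 (ENSMUSG00000068744, chromosome 3, 108383839 to 108388231), a spindle protein, had 975 counts in WT and 2918 in 2KR. Its level went from 55.8 to 142 CPM, 2.54-fold higher (2.36 to 2.73), the largest ratio of the 35 genes. Gtse1, a microtubule-binding protein of G2 phase that shuttles p53 out of the nucleus, had 64.9 and 101 CPM, 1.55-fold higher (1.44 to 1.67). Ckap2, a cytoskeleton protein of mitosis, had 43.9 and 61.3 CPM, 1.40-fold higher (1.28 to 1.53). All 3 genes are also known as genes of dividing cells.

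The Polo-like kinase genes of the set went in opposite directions. Plk2 (chromosome 13, 110395044 to 110400844), a stress-induced kinase, had 84 and 198 counts, 4.80 and 9.61 CPM, 2.00-fold higher (1.54 to 2.61). Plk3 (ENSMUSG00000028680, chromosome 4, 117128655 to 117133963), a kinase induced early after mitogens and stress, had 283 and 102 counts, 16.2 and 4.95 CPM. It was 3.27-fold lower (2.60 to 4.14), the farthest below 1 of the genes with a mean of at least 1 CPM. Plk3 had a higher FPKM than Plk2 in WT, at 4.20 against 1.70, and a lower one in 2KR, at 1.30 against 3.45. Their order by CPM was the same.

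**Figure D3:**
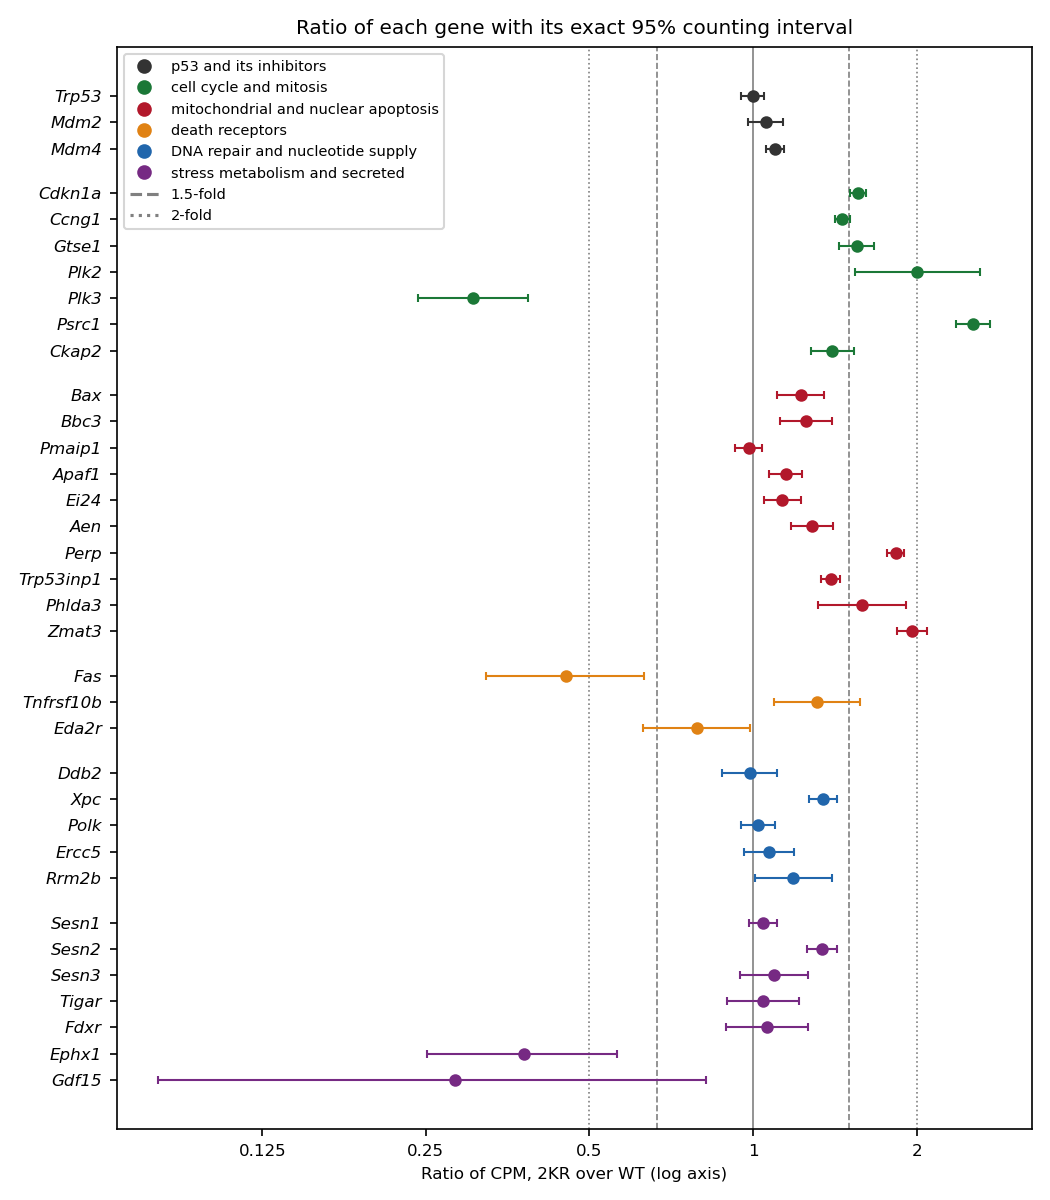
Ratio of CPM, 2KR over WT, on a log axis for each of the 35 genes, with exact 95% intervals for counting error as bars and 1 library per form. Psrc1 lies farthest right at 2.54, Trp53 sits at 0.998, and Plk3, Fas, Ephx1 and Gdf15 lie left of 0.5.

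Of the 10 genes of mitochondrial and nuclear apoptosis, 9 had a counting interval wholly above 1, against 31.6% of all models, and the median log2 ratio was 0.33. Perp (ENSMUSG00000019851, chromosome 10, 18845071 to 18857073), a membrane protein of desmosomes and of p53-dependent death, had 4196 counts in WT and 9046 in 2KR. That is 240.0 and 439 CPM, 1.83-fold higher (1.76 to 1.90). Zmat3 (ENSMUSG00000027663, chromosome 3, 32334792 to 32366014), an RNA-binding zinc finger protein, had 1342 and 3103 counts, 76.8 and 151 CPM, 1.96-fold higher (1.84 to 2.09). Phlda3, which competes with the survival kinase AKT for membrane lipids, had 180 and 336 counts, 10.3 and 16.3 CPM, 1.58-fold higher (1.32 to 1.91). These 3 were the members of the group past 1.5-fold.

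Trp53inp1, a stress protein of nuclear bodies that promotes p53 phosphorylation and autophagy, had 223 and 309 CPM, 1.39-fold higher (1.33 to 1.45). Aen, a nuclease of apoptotic cells, had 47.2 and 60.5 CPM, 1.28-fold higher (1.17 to 1.40).

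The BCL2 family genes of the set were within 1.5-fold. Bax (chromosome 7, 45461695 to 45466898), which permeabilises the outer mitochondrial membrane, had 38.8 and 47.5 CPM, 1.22-fold higher (1.11 to 1.35). Bbc3, which encodes the BH3-only protein PUMA, had 30.7 and 38.4 CPM, 1.25-fold higher (1.12 to 1.40). Pmaip1, which encodes the BH3-only protein NOXA, had 124 and 122 CPM, a ratio of 0.982 (0.926 to 1.04), and its interval held 1. By FPKM Pmaip1 was at 46.5 and 46.3, close to Bax at 44.4 and 55.1, and Bbc3 was lower at 10.5 and 13.4. Apaf1, the scaffold of the apoptosome, was 1.15-fold higher (1.07 to 1.23), from 82.6 to 94.8 CPM. Ei24, a protein of the endoplasmic reticulum, was 1.13-fold higher (1.05 to 1.22), from 66.3 to 75.1 CPM.

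The 3 death receptor genes were low in both libraries and did not share a direction. Fas (ENSMUSG00000024778, chromosome 19, 34290659 to 34327770), the receptor of FAS ligand, had 107 counts in WT and 57 in 2KR, 6.12 and 2.77 CPM, 2.21-fold lower (1.59 to 3.11). Tnfrsf10b, the mouse receptor of TRAIL, had 202 and 312 counts, 11.6 and 15.1 CPM, 1.31-fold higher (1.09 to 1.57). Eda2r, a receptor of ectodysplasin, had 166 and 154 counts, 9.49 and 7.47 CPM, 1.27-fold lower (1.01 to 1.59). Together they summed to 27.2 CPM in WT and 25.4 in 2KR.

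Of the 5 genes of DNA repair and nucleotide supply, 0 passed 1.5-fold. Xpc, which recognises bulky lesions in nucleotide excision repair, was the farthest from 1, with 101 and 136 CPM, 1.35-fold higher (1.27 to 1.43). Rrm2b, the p53-induced subunit of ribonucleotide reductase, had 14.5 and 17.2 CPM, 1.19-fold higher (1.01 to 1.40). Ercc5, an endonuclease of excision repair, had a ratio of 1.07 (0.964 to 1.19), and Polk, a translesion polymerase, had 1.02 (0.9502 to 1.10). Ddb2, the damage sensor that acts with Xpc, had 31.3 and 30.8 CPM, a ratio of 0.985 (0.877 to 1.11). Ddb2 overlaps Acp2 on the opposite strand over 2527 bases, and Acp2 had 1143 and 889 counts against 547 and 635 for Ddb2, so the value of Ddb2 is uncertain where counting ignored strand. The interval held 1 for Ercc5, Polk and Ddb2.

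Among genes of stress metabolism the sestrins, which restrain mTORC1 and oxidant stress, differed in size. Sesn2 had 94.9 and 127 CPM, 1.34-fold higher (1.26 to 1.42). Sesn1 had 115 and 120 CPM, with a ratio of 1.04 (0.984 to 1.11), and Sesn3 had 19.3 and 21.1 CPM, with a ratio of 1.09 (0.946 to 1.26). By FPKM Sesn1 led in WT, at 34.2 against 27.1 for Sesn2, and in 2KR they were at 36.2 and 36.8. The intervals of Sesn1 and Sesn3 held 1.

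Tigar, a phosphatase that lowers glycolytic flux, had 18.2 and 19.0 CPM, a ratio of 1.04 (0.897 to 1.21). Fdxr, the mitochondrial ferredoxin reductase, had 13.6 and 14.4 CPM, a ratio of 1.06 (0.890 to 1.26). Ephx1 (ENSMUSG00000038776, chromosome 1, 180976210 to 181020904), the microsomal epoxide hydrolase, had 85 counts in WT and 38 in 2KR, 4.86 and 1.84 CPM, 2.64-fold lower (1.78 to 3.97). Gdf15, a secreted stress cytokine, was the gene left out by the filter, with 15 and 5 counts, 3.54-fold lower with a wide interval (1.22 to 12.4). At so few counts the size of its difference is poorly set.

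The 6 genes with a pair of half-site cores near a start ranged from level to 1.56-fold higher in 2KR. Cdkn1a was the highest, followed by Ckap2 at 1.40-fold, Aen at 1.28-fold and Bbc3 at 1.25-fold, while Tigar at 1.04 and Trp53 at 0.998 had intervals that held 1. Psrc1, Gtse1, Plk2 and Phlda3, each past 1.5-fold, had no pair in this upstream window, and Perp and Zmat3 had no entry in the table.

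The 35 genes lie on 17 chromosomes. The nearest models averaging 1 CPM or more on either side of the 7 higher genes gave 14 neighbours, of which 1 was at least 1.5-fold higher and 4 at least 1.5-fold lower, against 6.92% and 9.67% of all models. The higher neighbour was Trp53cor1, a long noncoding RNA also known as lincRNA-p21 and itself a p53 target, which lies 12018 bases before Cdkn1a. It had 229 and 729 counts, 13.1 and 35.4 CPM, 2.70-fold higher (2.33 to 3.15). The 4 lower neighbours were Gm16194, 13423 bases after Cdkn1a (1.71-fold), Ttc38, 885 bases before Gtse1 (2.21-fold), Tnfaip3 and Arfgef3. Tnfaip3 lay 143837 bases after Perp (1.75-fold) and Arfgef3 101313 bases before it (1.81-fold). Distances among the 14 ran up to 1212215 bases, so not all are close to their gene. Of the 6 neighbours of the 3 lower genes, 1 was at least 1.5-fold lower by the size rule. It was Lipa, 164548 bases after Fas, at 2.04-fold (1.66 to 2.51). Stambpl1, on the other side of Fas, was 1.61-fold lower by CPM (1.19 to 2.18), which the log2 ratio of CPM + 1 leaves just short of the rule. The neighbours named here were singled out after their values were seen.

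Other genes of the p53 pathway were read in 6 lists, and 103 of the 107 found had a mean of at least 1 CPM. Of the 103, 11 were at least 1.5-fold higher (10.7%) and 7 at least 1.5-fold lower (6.80%), with a median log2 ratio of 0.19. Over all models, the background for each list below, these values were 6.92%, 9.67% and 0.02. The p53 paralogues Trp63 and Trp73 had 0 counts in both libraries, which allows levels of up to 0.172 CPM in WT and 0.146 in 2KR (3 counts).

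A list of 42 further p53 targets was split in direction. It includes Pml (1.36-fold higher), which may hold reads of the introduced fusion. Of the 40 that averaged 1 CPM or more, 26 had a ratio above 1 (65%, against 52.3% of all models) and 14 below (35%, against 47.7%). At least 1.5-fold higher were 7 (17.5%, against 6.92%) and at least 1.5-fold lower were 5 (12.5%, against 9.67%). The median was 0.09. Kitl, the gene of the cytokine SCF, had 24.1 and 2.18 CPM, 11.1-fold lower (8.12 to 15.4). Lif, leukaemia inhibitory factor, had 83.3 and 16.6 CPM, 5.02-fold lower (4.46 to 5.66). On the other side Sulf2, an extracellular sulfatase, had 20.2 and 77.5 CPM, 3.83-fold higher (3.41 to 4.30). Ctsd, the lysosomal protease cathepsin D and the most abundant of the list by counts, was 1.19-fold lower (1.16 to 1.22).

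Upstream regulators were split in direction. Of 17 damage kinases and activators, 1 was at least 1.5-fold higher and 1 at least 1.5-fold lower, with a median of 0.14. Dyrk2, a kinase of p53, was 1.63-fold higher (1.48 to 1.81), and Crebbp, the acetyltransferase CBP, was 1.68-fold lower (1.57 to 1.79). Topbp1, an activator of the ATR kinase, was 1.44-fold higher (1.38 to 1.49).

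Of 14 genes listed as p53 ligases and other negative regulators, 2 were at least 1.5-fold higher and 1 at least 1.5-fold lower, with a median of 0.11. Not every gene of the list opposes p53, and the 2 higher genes include Cdkn2a, so these values do not describe negative regulators alone. Cdkn2a, the locus of p16 and of ARF, had 29 and 126 counts, 1.66 and 6.12 CPM, 3.69-fold higher (2.45 to 5.73). ARF binds MDM2 and so favours p53, while the counts do not separate ARF from p16. Rchy1, a ubiquitin ligase of p53, was 1.58-fold higher (1.38 to 1.80), Twist1, a transcription factor that binds p53, was 1.88-fold lower (1.66 to 2.13), and Huwe1, the most abundant by counts, was at 1.05 (1.03 to 1.08).

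Genes that link ribosome stress to MDM2 all had ratios above 1, 10 of 10 against 52.3% of all models, with a median of 0.28. The interval lay wholly above 1 for 9 of them, against 31.6% of all models, and held 1 for Rpl11, at 1.14 (0.883 to 1.48). Rps27l, itself a p53 target, was 1.78-fold higher (1.63 to 1.94), Npm1 1.46-fold (1.43 to 1.501) and Gnl3 1.46-fold (1.36 to 1.56). Ncl, nucleolin, was 1.22-fold higher (1.19 to 1.24). Reads of ribosomal protein genes can be split with their pseudogenes.

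Genes that p53 lowers through p21 and the DREAM repressor complex, mostly genes of S phase and mitosis, were above 1 in 22 of 22 cases, against 52.3% of all models, with a median of 0.30 and 0 past 1.5-fold. The interval lay wholly above 1 for 18 of them, against 31.6% of all models, and held 1 for Cdc25c, Ccnb1, Plk1 and Foxm1, the lowest at 1.03 (0.969 to 1.10). Kif23 was 1.49-fold higher (1.38 to 1.60), Mybl2 1.45-fold (1.32 to 1.59), Cenpa 1.33-fold (1.25 to 1.41), and the most abundant, Top2a, 1.29-fold (1.26 to 1.32). Cdkn1a and these genes were higher in the same library. Whether they were higher in the same cells cannot be read from bulk RNA.

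**Figure D4:**
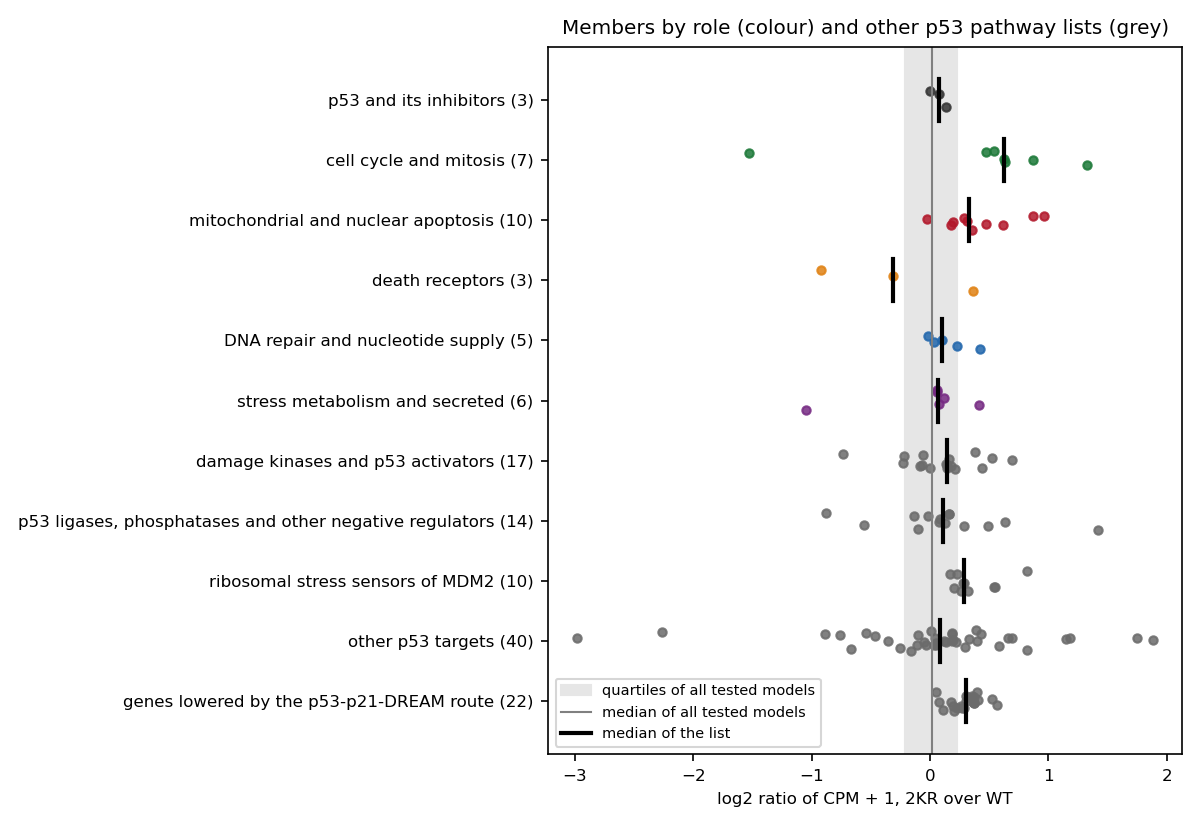
Log2 ratio of CPM + 1, 2KR over WT, for each gene with a mean of at least 1 CPM (points, spread vertically for visibility), in the 6 role groups (colour) and in 5 lists of other p53 pathway genes (grey), with the number of genes in brackets. Black bars are list medians and the band holds the quartiles of all models; the cell cycle group has its median at 0.63, with Plk3 alone at -1.53.

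The libraries also differed in markers of cell type, and in bulk RNA fewer cells of a type and less RNA per cell cannot be told apart. The 12 progenitor markers all had a mean of at least 1 CPM and summed to 4229 CPM in WT and 4329 in 2KR, with Kit at 1359 and 1158 and Cd34 at 388 and 723. The 12 mast cell and basophil markers summed to 6653 and 3452 CPM: 7 of the 9 averaging 1 CPM or more were at least 2-fold lower in 2KR, led in level by Cpa3, Mcpt8 was higher, and Fcer1a had 0 counts in both. The 8 monocyte and macrophage markers summed to 262 and 124 CPM, a difference set by Cx3cr1 (101 and 20.7) and Ccr2 (118 and 56.2), while 4 of the 7 averaging 1 CPM or more were above 1, Ly6c2 and Adgre1 among them. The 10 neutrophil lineage markers summed to 246 and 538 CPM, mostly from Ctsg (212 and 487), and 2 of the 4 averaging 1 CPM or more, Mmp8 and Ngp, were below 1. Sums were 1001 and 1295 CPM for 6 megakaryocyte markers, where Itga2b was level (867 and 858) and the rise was mostly Pf4 (121 and 406). For 7 erythroid markers they were 18.8 and 27.1 CPM, mostly from Hba-a1 (10.7 and 20.1), while Hbb-bt was lower (3.15 and 1.26). The sums were 4.58 and 2.04 CPM for 5 T cell markers, where Cd3e had 0 counts in both, and 0.0572 and 0.582 for 6 B cell markers, where Pax5, Cd79b and Ebf1 had 0. The 8 stromal and endothelial markers summed to 1101 and 1132 CPM, almost all from Pdgfrb and Pecam1, with Lepr at 0 and 2 counts. The part of cell makeup in the ratios of p53 target genes was not tested. Mouse Pml and Rara, which may hold reads of the introduced fusion and so do not check the labels, had ratios of 1.36 (1.25 to 1.47) and 1.23 (1.15 to 1.31).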

How the data were processed

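The authors deposited, per the file headers, raw read counts and FPKM for 34745 gene models in each of 2 libraries. HISAT2 2.0.4 and GRCm38 were used, per the submitters' processing notes; how reads were counted, with which annotation and strand setting, is not stated in the sources used here. The deposited FPKM equalled the count over a fixed length and the library total within 0.1% in 15403 of the 15403 models that were read in both. Samples were grouped by the infection label, 1 library each, so no test was run.

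Counts were scaled with TMM factors (edgeR 4.0.16, R 4.3.3; 0.993 for WT and 1.01 for 2KR) and compared as the log2 ratio of CPM + 1, for models that averaged 1 CPM or more. Calls are by size, 1.5-fold or 2-fold. Each ratio has an exact (Clopper-Pearson) 95% interval from its 2 counts. The ratio and interval code was tested on simulated data. Genes named outside the member set were the 3 with the largest ratio and the 1 most abundant of each pathway list, Pml and Rara, and markers from the cell type lists. Trp53cor1, Lipa, the other named neighbours, Acp2 and Rpl11 were chosen after their values were seen. So were the 4 late cell cycle genes whose interval held 1, and the single markers named within a list. Overlaps and strand used GENCODE M21, which held 34267 of the identifiers. Other settings, including DESeq2 1.42.0 size factors, are in the closing section. The members and lists were chosen with earlier results of these data known.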

Additional observations from a re-analysis of the deposited data

How the results depend on the processing

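Counts of genes at least 1.5-fold or 2-fold higher, the count with a ratio above 1 and the median log2 ratio stayed near their main values (counts within 1.5 times) under the alternatives tried for scaling, centring, pseudocount, low-value filter and overlapping models. The median ran from 0.19 to 0.32, against 0.005 to 0.04 over all models without centring. The counts of lower genes, small to begin with, did not. With a pseudocount of 5 CPM, or a mean of at least 5 CPM, the counts were 1 gene at 1.5-fold and 1 at 2-fold, in place of 3 and 2. On deposited FPKM 1 was at least 2-fold lower. Without the 7 genes that overlap another model, the counts were 1 gene at 1.5-fold and 0 at 2-fold, because Plk3 and Ephx1 leave the set; the models they overlap had at most 2 counts. Leaving out only Ddb2, a choice made after seeing the data, kept the counts at 3 and 2. Of 34 genes, Trp53 alone changed sign, between -0.02 and 0.02. No paired analysis was possible because each form has 1 library, and no library could be left out. Counting error limits Gdf15, Fas, Ephx1 and Plk2 most, and variation between cultures was not measured.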
